A study of Populus ussuriensis with 20 samples.

Results

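A group of 42 genes of Populus ussuriensis (Ussuri poplar) had higher levels at 2 and 4 h than at 12 and 24 h. The hours count from the move of rooting stem cuttings to new liquid medium, and the fall held at both phosphate levels of the medium. The median member was 2.46 times as abundant early as late. Membership was set by measured values, so the fall itself is a description and no test of it is given for the 42 as a group. FPKM, the unit of all levels here, is the number of sequenced fragments of a gene, scaled to the length of the gene and to the fragment total of the library. A gene's level at a time was the mean of log2(FPKM + 1) over the 4 libraries of that time. The lower of the levels at 2 and 4 h had to exceed the higher of those at 12 and 24 h by at least 0.8. The 2 early levels had to lie within 0.8 of each other, as did the 2 late ones, and the fall had to be at least 0.4 at each phosphate level alone. Of 34699 genes in the table, 24934 had 2 or more libraries with an FPKM of 1 or higher, and these are called tested genes. The first condition left 66 of these, the second 55 and the third 42. The same rule turned round, for genes that went up, kept 82. The libraries at 8 h took no part in the choice.

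Cuttings from 3-week-old plants were kept for 5 days on solid Woody Plant Medium under a light and dark cycle until root primordia had formed, and were then moved to modified liquid medium with 10 µM or 200 µM KH2PO4. The stem bases, which held the primordia and neighbouring tissue, were collected 2, 4, 8, 12 and 24 h later, with 2 RNA-seq libraries for each of the 10 combinations. The labels do not say whether the 2 libraries came from separate plants or cultures, so p-values measure the spread between these libraries, which may be technical. All groups were moved from solid to liquid medium, and no library from before the move was analysed here. Time after the move therefore cannot be told apart from age or from the hour of the light and dark cycle. In a bulk sample, fewer cells of a type and less RNA per cell cannot be told apart either.

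Adventitious roots are roots that form on stems, and many forest trees are propagated through them. Phosphate is a major plant nutrient, and its shortage is known to reshape root systems and to induce genes of phosphate uptake and recycling. When cuttings are handled and moved, many transcripts change for a limited time, and many others follow the daily cycle. The files pair no identifier with a gene name or description. The 42 genes are therefore described by their levels, lengths and identifiers and not by function, and the tissue could not be checked against marker genes. In poplar identifiers of this form, the 3 digits before the letter G are known to name the chromosome.

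Potri.016G135400 had the largest gap between the early and the late levels, 1.78 on the log2 scale. At 10 µM it measured 63.1 and 113 FPKM after 2 h, 108 and 98.0 after 4 h, 48.4 and 32.6 after 8 h, 29.3 and 18.04 after 12 h, and 14.0 and 23.1 after 24 h. At 200 µM the values were 78.2 and 85.5 after 2 h, 60.1 and 87.4 after 4 h, 43.1 and 55.2 after 8 h, 26.0 and 22.1 after 12 h, and 21.1 and 14.95 FPKM after 24 h. Each of the 8 early libraries was above each of the 4 libraries at 8 h, and these were above each of the 8 late libraries. Over both phosphate levels the gene went from 86.7 ± 19.3 FPKM early to 21.1 ± 5.27 FPKM late (SD over 8 libraries each). These values rested on 636 fragments or more in an early library and 156 or more in a late one.

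Potri.004G146000 had the next largest gap, 1.40, and a later fall. At 10 µM it measured 23.2 and 25.0 FPKM after 2 h, 20.8 and 27.1 after 4 h, 22.4 and 9.25 after 8 h, 6.43 and 6.77 after 12 h, and 7.14 and 6.78 after 24 h. At 200 µM it measured 23.1 and 21.5 FPKM after 2 h, 17.3 and 25.5 after 4 h, 20.0 and 16.8 after 8 h, 7.14 and 5.62 after 12 h, and 8.83 and 8.97 after 24 h. Of the libraries at 8 h, 3 were thus close to or inside the early range of 17.3 to 27.1 FPKM. Replicate 2 at 10 µM, at 9.25 FPKM, was just above the late range of 5.62 to 8.97 FPKM.

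**Figure D1:**
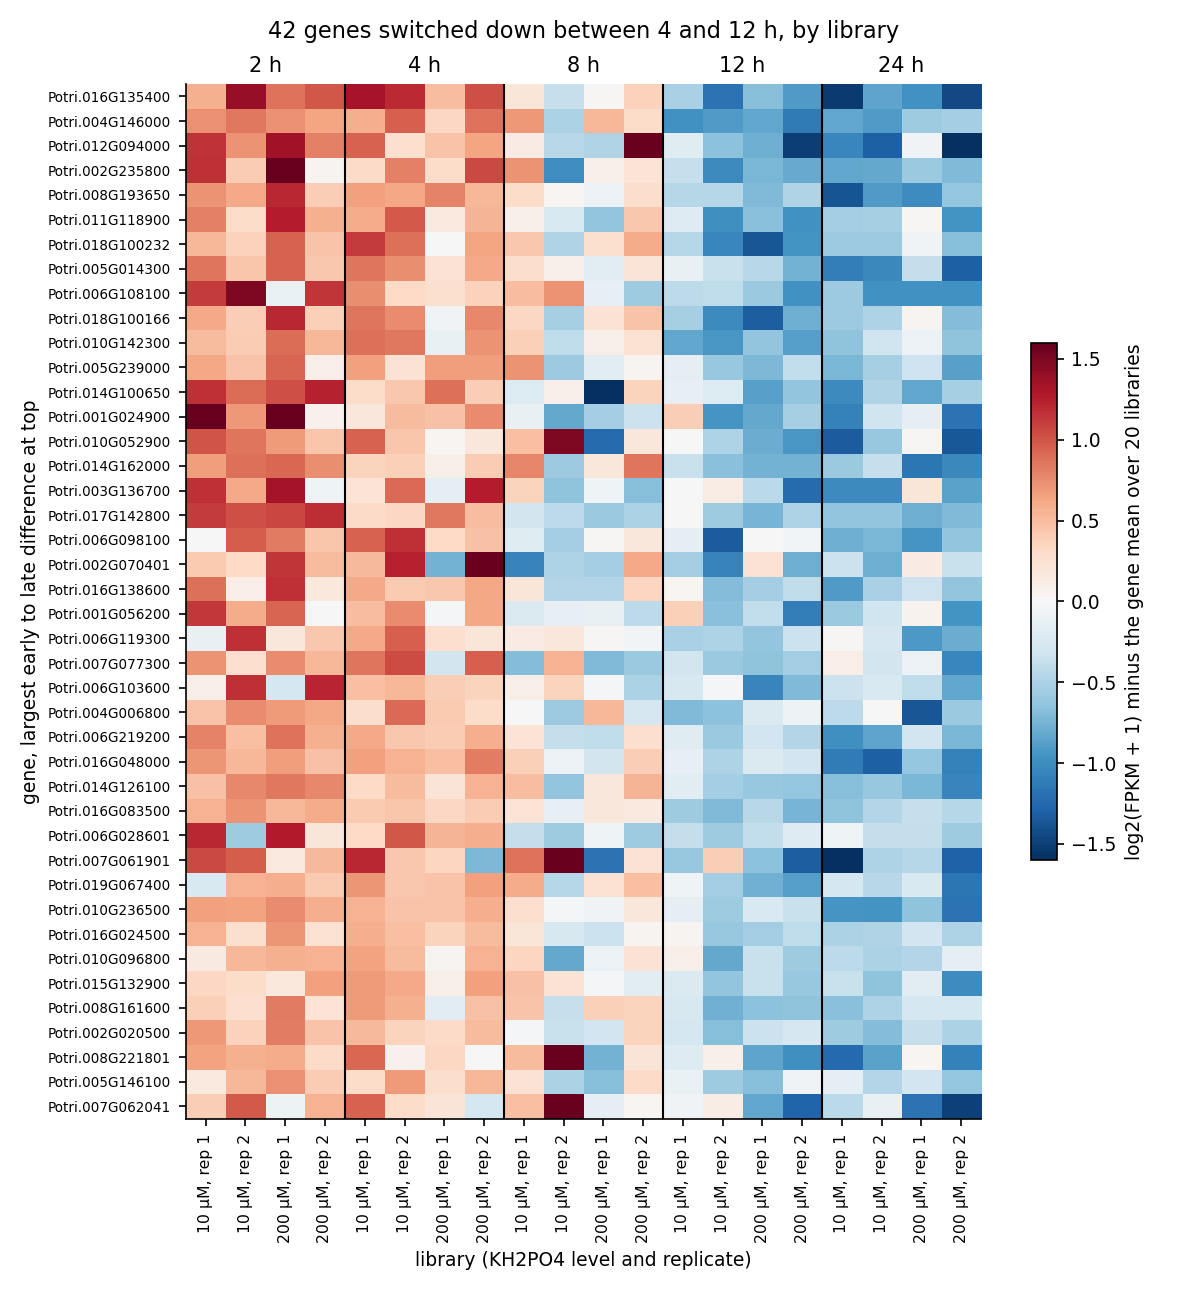
Level of each of the 42 members in each of the 20 libraries, as log2(FPKM + 1) minus the gene's own mean over the 20 libraries; red is above and blue below that mean, and colours end at 1.6 in either direction. Columns are grouped by time, with 10 µM before 200 µM KH2PO4, and rows run from the largest gap (1.78) at the top to the smallest (0.80). The early columns are mostly red and the late ones blue, while the 8 h columns are mixed, and 4 rows are darkest in replicate 2 at 10 µM and 8 h.

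The members ranged from scarce to among the abundant transcripts. Their mean FPKM over all libraries ran from 0.632 to 1980, with a median of 13.2 against 8.73 for all tested genes. There were 12 members under 5 FPKM and 6 above 100. Potri.011G118900, the most abundant (singled out after its values were seen), averaged 2875 ± 740 FPKM early and 1206 ± 324 FPKM late (SD over 8 libraries each). Potri.010G236500 came next, with 1819 ± 128 FPKM early and 805 ± 204 FPKM late. This pair made up 72.5% of the members' summed FPKM. Together the 42 genes held 0.765 to 1.26% of a library's FPKM total at 2 and 4 h, 0.512 to 0.784% at 8 h and 0.325 to 0.562% at 12 and 24 h. At the scarce end, 4 members had fewer than 10 fragments in some early library and 7 in some late one. The early level of 21 members rested on at least 100 fragments in every early library.

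The largest falls as ratios were in scarce genes, which the log2(FPKM + 1) scale compresses. Potri.017G142800, singled out after its values were seen, had the highest ratio of early to late mean FPKM, 9.47. At 10 µM it measured 2.92 and 2.68 FPKM after 2 h, 1.23 and 1.26 after 4 h, 0.469 and 0.354 after 8 h, 0.809 and 0.221 after 12 h, and 0.163 and 0.166 after 24 h. At 200 µM it measured 2.79 and 3.10 FPKM after 2 h, 2.23 and 1.54 after 4 h, 0.191 and 0.275 after 8 h, 0.0788 and 0.279 after 12 h, and 0.0541 and 0.1065 after 24 h. The early and late libraries did not overlap, and all 4 libraries at 8 h were inside the late range. The values rested on 44 to 113 fragments early and on 2 to 30 late, so the size of the ratio is imprecise. The lowest counts of any member were in Potri.006G028601, with 0 to 18 fragments early and 0 to 3 late; its groups overlapped.

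The values that chose the members can be described further, with nothing read from them. In 26 of the 42 members all 8 early libraries were above all 8 late ones, against 1.21% of all tested genes. The level was lower at 4 h than at 2 h in 30 members and in 44.8% of tested genes. The median change of the members was -0.09 on the log2 scale. From 12 to 24 h the level was lower in 28 members and in 43.8% of tested genes, with a median member change of -0.15. Replicate 1 at 200 µM and 2 h was the highest of the 20 libraries in 19 members, against 7.59% of tested genes. Replicate 2 at 200 µM and 24 h was the lowest in 12 members, against 5.15% of tested genes. The rule asked for high early and low late libraries, so extremes among these were favoured by the choice.

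The edge of the group was not sharp. Potri.005G146100 and Potri.007G062041 were the last ones inside, with gaps of 0.801 and 0.8005. Potri.001G366100 and Potri.010G027600, with 0.791 and 0.789, met every other condition and were the first outside. Of the members, 11 had a gap of at least 1.

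Because the rule averaged both phosphate levels, the same fall was also looked at in libraries that did not enter the 0.8 conditions. These libraries entered only the filter for tested genes. Without that filter the numbers chosen were the same, 70 at 10 µM alone and 35 at 200 µM alone. Genes that met the 0.8 conditions at 10 µM alone numbered 70, of which 21 are among the 42. In the 10 libraries at 200 µM, 69 of these 70 were lower late than early. Their median log2 change was -0.87, against 0.02 for all tested genes and -1.20 where they had been chosen. In limma on the 200 µM libraries alone, 31 of the 70 were lower at a Benjamini-Hochberg adjusted p under 0.05, and 0 were higher. Among all tested genes 1.93% were called lower. The 4 early libraries at 200 µM were all above the 4 late ones in 29 of the 70, and in 3.67% of tested genes.

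The reverse choice gave the like picture with fewer genes. At 200 µM alone 35 genes were chosen, 26 of them among the 42. At 10 µM all 35 were lower late than early. Their median log2 change was -1.03 (from -2.14 to -0.42), against a median of 0.03 over all tested genes. limma on the 10 µM libraries called 22 of the 35 lower and 0 higher, against 2.39% of tested genes called lower. The 4 early libraries were above the 4 late ones in 25 of the 35, and in 7.07% of tested genes. Libraries of one number at 2 h deviated together across phosphate levels (r = 0.5 across genes), so these sets of libraries were not fully separate. Single libraries decided many of the calls. The 31 calls became 11 when the second 4 h library or the second 12 h library of the 200 µM series was omitted, 12 or 13 when its second 24 h or first 12 h library was, and 17 without the second 12 h library of the 10 µM series. The 22 calls became 13 or 14 when the second library at 4 h, the second at 12 h or any at 24 h of the 10 µM series was omitted. They became 35 when the first 200 µM library of 4 h or of 24 h was omitted, since 54 and 57 genes were then chosen.

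At 8 h, the time left out of the rule, most members were between their early and late levels. The mean over the 4 libraries at 8 h fell between the lower early and the higher late level in 35 of the 42 members. It was at or above the lower early level in 3 and at or below the higher late level in 4. The rule asked for a gap between these levels, so a mean between them was favoured by the choice. Expressed as a position, with 0 for the mean late level and 1 for the mean early level, the median member stood at 0.73 in replicate 1 and 0.18 in replicate 2 at 10 µM. At 200 µM it stood at 0.39 in replicate 1 and 0.69 in replicate 2. The 2 libraries of each phosphate level thus lay further apart than the phosphate levels did. Single libraries also held members outside the range from 0 to 1. At 10 µM, 8 members were above 1 and 3 below 0 in replicate 1, and 5 above and 10 below in replicate 2. At 200 µM, 0 were above 1 and 9 below 0 in replicate 1, and 3 above and 4 below in replicate 2. Replicate 1 was above replicate 2 at 10 µM in 31 members and in 46.6% of tested genes. At 200 µM replicate 2 was above replicate 1 in 31 members, while replicate 1 was the higher in 52.6% of tested genes.

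The 82 genes of the mirrored rule gave the same order of libraries at 8 h. Their median position, again with 1 for the early level, was 0.69 and 0.28 in replicates 1 and 2 at 10 µM and 0.30 and 0.56 at 200 µM. Replicate 2 at 10 µM and replicate 1 at 200 µM were thus nearest to the late level by both groups of genes. No test of this order is given, since both groups were chosen on the levels that set the scale.

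**Figure D2:**
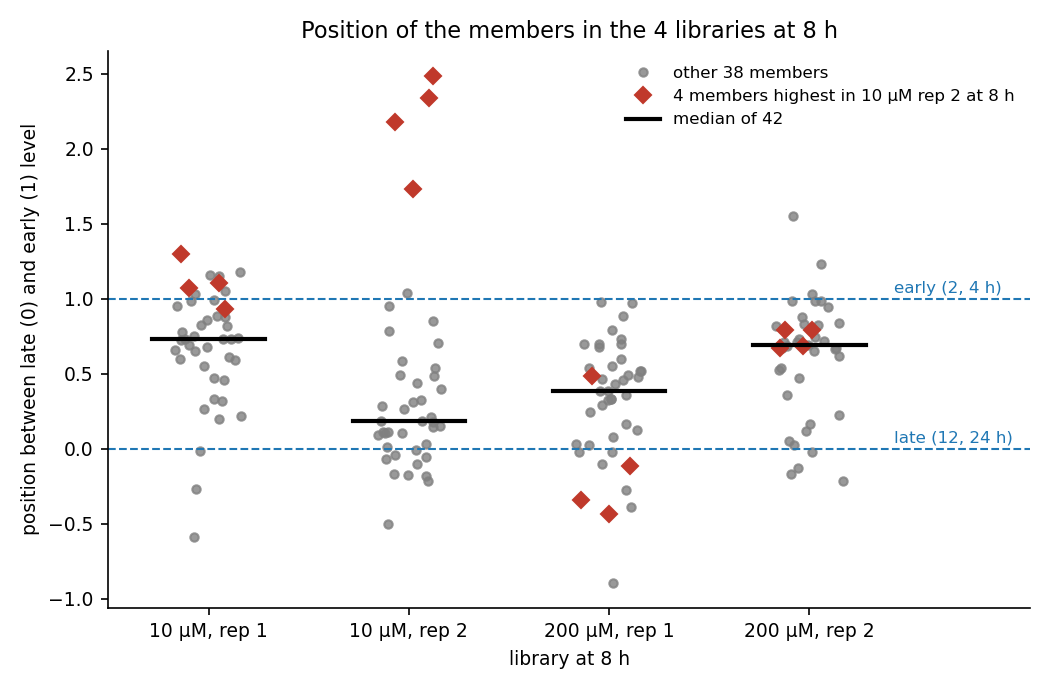
Position of each member in the 4 libraries at 8 h, where 1 is the member's mean level at 2 and 4 h and 0 its mean level at 12 and 24 h, on the log2(FPKM + 1) scale. Grey points are 38 members, red diamonds the 4 members whose highest library is replicate 2 at 10 µM and 8 h, and black bars the median of all 42 (0.73, 0.18, 0.39 and 0.69).

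The 3 members most like the median profile of the group over the 10 group means were Potri.002G235800, Potri.016G138600 and Potri.016G024500, each with a correlation of 0.99. Potri.002G235800 at 10 µM measured 14.2 and 7.94 FPKM after 2 h, 7.39 and 10.8 after 4 h, 10.1 and 2.38 after 8 h, 4.26 and 2.33 after 12 h, and 2.79 and 2.84 after 24 h. At 200 µM it measured 22.4 and 5.95 FPKM after 2 h, 7.26 and 13.1 after 4 h, 6.13 and 6.88 after 8 h, 3.09 and 2.87 after 12 h, and 3.48 and 3.13 after 24 h. Its late libraries lay close together, while at 2 h replicate 1 was well above replicate 2 at both phosphate levels. Potri.016G138600 had the same split at 2 h, with 73.5 and 42.5 FPKM at 10 µM and 89.5 and 44.3 FPKM at 200 µM. Potri.016G024500 varied least of the 3, between 30.8 and 42.5 FPKM early and between 16.5 and 26.6 FPKM late. Over all 42 the correlation with the median profile ran from 0.65 to 0.99, with a median of 0.92. Most of the 10 group means belong to times that the rule used, and each member is part of the median profile. High correlations were therefore favoured by the choice.

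At 8 h, the time that the rule did not use, most members moved in one direction between the replicate libraries. At 10 µM replicate 1 was above replicate 2 in 31 of 42 members, against 46.6% of tested genes. The median member difference was 0.41 in log2, while the median of all tested genes was -0.03. At 200 µM and 8 h replicate 1 was above replicate 2 in 11 members, against 52.6% of tested genes. The median member difference there was -0.24, against 0.02 for all tested genes. The members share these 4 libraries, so their counts are descriptions.

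In the other 8 groups the same libraries helped to choose the members, and a library with low late or high early values raises both the gap and the replicate difference. In the 24 h group of the 200 µM series, omitting replicate 2 left 29 genes that met the rule, and omitting replicate 1 left 60. The differences there are given with nothing read from them. The median of replicate 1 minus replicate 2 was 0.43 at 24 h and 200 µM, 0.40 at 12 h and 10 µM, 0.29 at 2 h and 200 µM and -0.20 at 4 h and 200 µM. At 2, 4 and 24 h at 10 µM and at 12 h at 200 µM the medians were between -0.06 and 0.10.

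**Figure D3:**
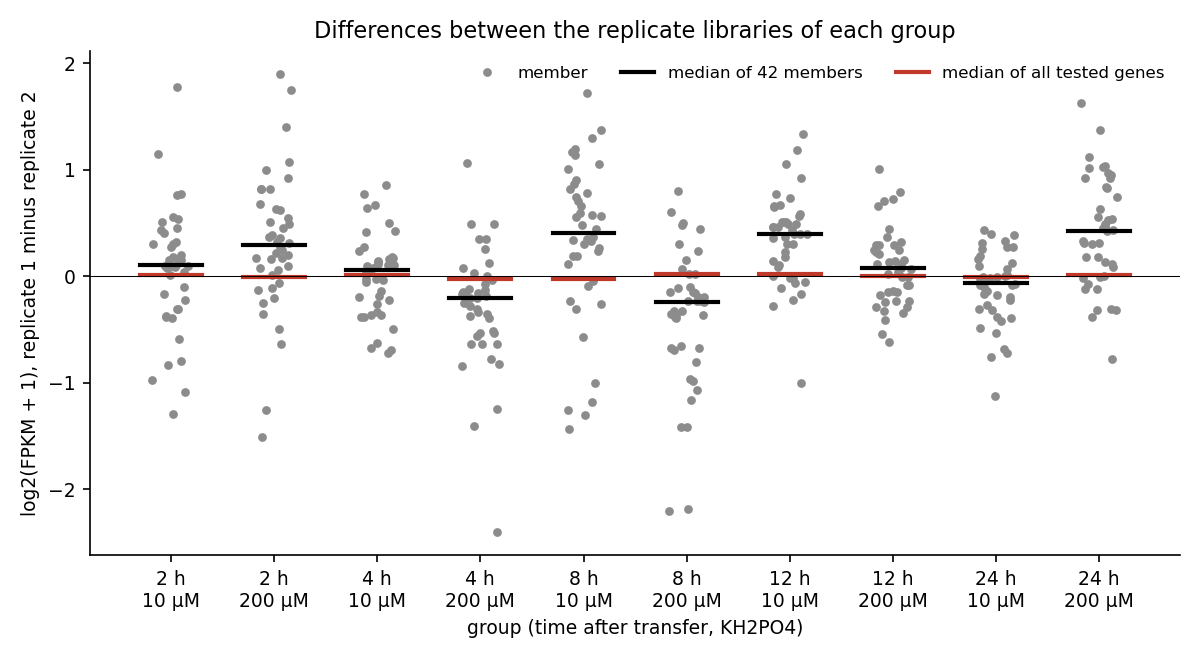
Difference between replicate 1 and replicate 2 in each of the 10 groups, on the log2(FPKM + 1) scale, for each of the 42 members (grey points), with the median of the members (black bars) and of all tested genes (red bars). The black bars stand at 0.41 and -0.24 in the 2 groups at 8 h, and the libraries of the other 8 groups were used to choose the members.

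Of the members, 4 had their highest value at 8 h in 1 library. Potri.007G061901, Potri.007G062041, Potri.008G221801 and Potri.010G052900, singled out after their values were seen, had their highest value of all 20 libraries in replicate 2 at 10 µM and 8 h. As 4 of 42, their number is near the 8.17% of tested genes in which this library was the highest, so having such genes is not particular to the members. In Potri.007G061901 it stood at 88.9 FPKM against 35.6 FPKM in its replicate, and the 200 µM libraries of that time were at 7.82 and 22.5 FPKM. In the other 3 genes replicate 2 of that group was 2.12 to 2.76 times as high as replicate 1. The 4 genes stood at positions of 1.73 to 2.49 in replicate 2, above their early level. Among the other 38 members, 31 were lower in replicate 2 than in replicate 1, and the median position in replicate 2 was 0.17.

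At the other times Potri.007G061901 was mostly higher at 10 µM, where it measured 40.5 and 38.1 FPKM after 2 h, 45.1 and 26.0 after 4 h, 12.1 and 25.3 after 12 h, and 5.54 and 13.2 after 24 h. At 200 µM it measured 21.4 and 27.5 FPKM after 2 h, 24.4 and 11.2 after 4 h, 11.6 and 6.99 after 12 h, and 13.6 and 7.14 after 24 h. The 10 µM libraries were the higher ones at 2, 4 and 12 h, and the groups overlapped at 24 h. Across the 20 libraries the 4 genes correlated with each other with r from 0.78 to 0.95, which their choice by 1 shared peak and by the rule favours.

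**Figure D4:**
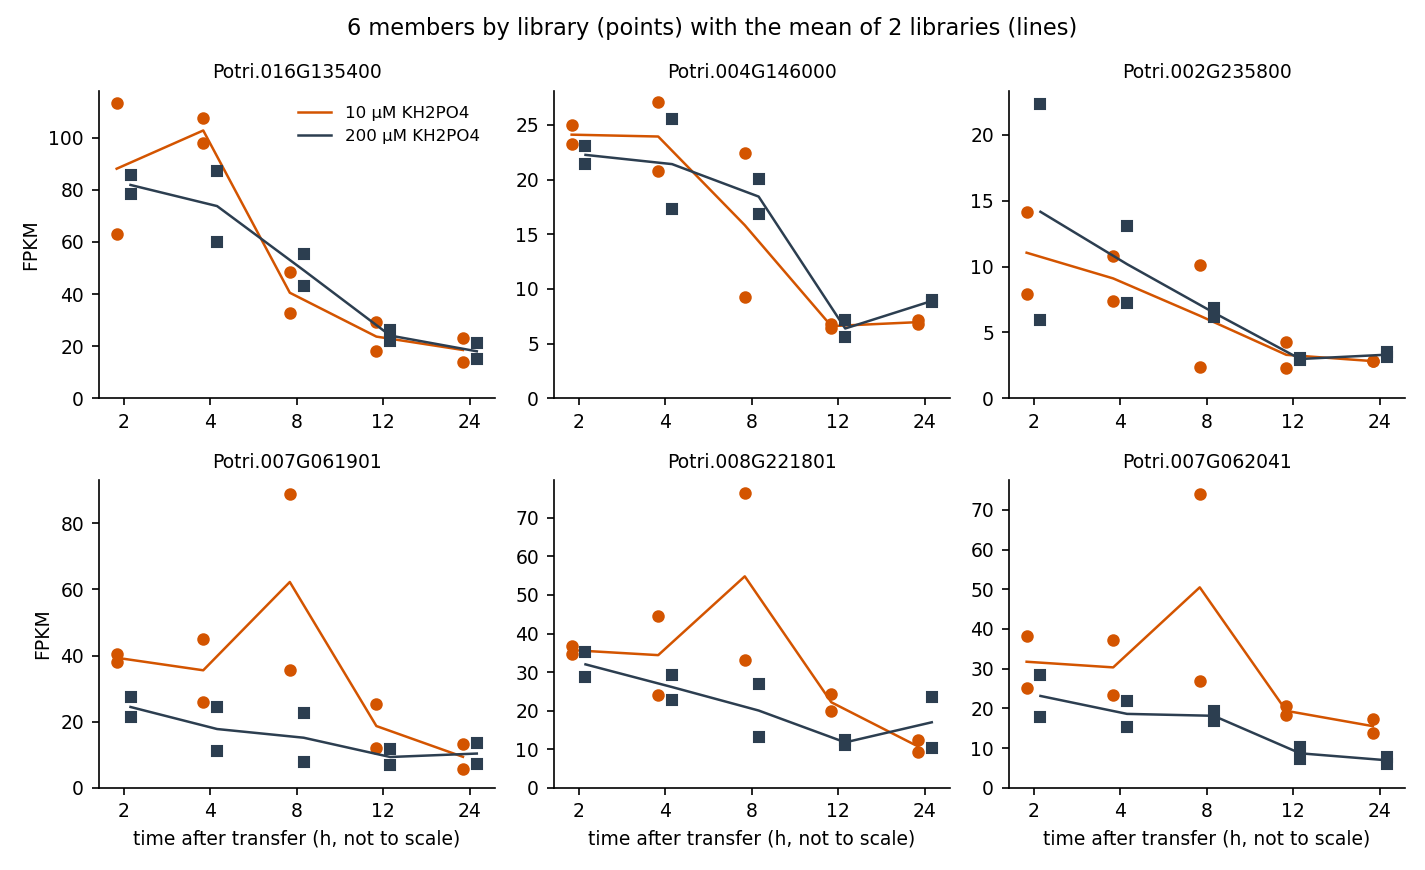
FPKM of 6 members in each library (points) with the mean of the 2 libraries of a group (lines), orange circles for 10 µM and dark squares for 200 µM KH2PO4; each vertical axis starts at 0. The upper row holds the 2 members with the largest gaps and the member most like the median profile, and the lower row 3 members that peak in replicate 2 at 10 µM and 8 h (88.9, 76.4 and 74.1 FPKM).

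Part of this set came from a run of neighbouring identifiers. In a stretch of 30 identifiers around Potri.007G061901, with bounds set after the values were seen, 24 genes were tested, from Potri.007G061861 to Potri.007G062342. All 24 were lower late than early, by a median log2 change of -0.85, against 0.03 over all tested genes. Only Potri.007G061901 and Potri.007G062041 met the full rule. Replicate 2 at 10 µM and 8 h was the highest library in 20 of the 24. The other 23 correlated with Potri.007G061901 over the 20 libraries with r from 0.29 to 0.99 and a median of 0.93, against a median of -0.06 over all tested genes. Of the 15 tested genes most like Potri.007G061901, 9 were in this run. The points share their libraries, and how fragments of near-identical genes were assigned is not given in the sources used here, so the genes of the run may not be separate measurements.

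Another pair of neighbouring identifiers, Potri.018G100166 and Potri.018G100232, followed the main pattern. The first measured 100.1 ± 25.8 FPKM early and 40.7 ± 11.9 FPKM late, the second 44.7 ± 11.1 and 17.4 ± 5.14 FPKM (SD over 8 libraries each). Across the 20 libraries their log2 levels correlated with r = 0.99, and the first was 1.85 to 2.67 times as high as the second in every library. If they share sequence, their fragments could have been split between them, so the pair is uncertain as 2 separate genes. The 42 members were spread over 17 identifier prefixes. The most were under 006 (6 members of 1881 tested genes) and 016 (5 members of 904 tested genes), and no test of this spread was made.

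Members were shorter than most genes. Lengths, worked out from the steps between FPKM values, had a median of 1018 bases against 1807 bases for all tested genes. Of the members, 20 (47.6%) were shorter than 1000 bases, against 16.8% of tested genes. Over all tested genes the early to late changes were also more widely spread in short genes: their SD was 0.41 in log2 up to 500 bases and 0.18 above 2500 bases. The median change of all genes in those classes was -0.04 and 0.05. The part of length in the choice of members was not tested.

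The phosphate levels were compared first at 8 h, the time free of the rule. There limma found 0 of 42 members and 0 of 24934 genes (0% of tested genes) at a Benjamini-Hochberg adjusted p under 0.05. An unadjusted p under 0.05 was reached by 5 members, all higher at 10 µM, and by 5.96% of tested genes. These were the 4 genes that peak in replicate 2 at 10 µM and 8 h, and Potri.006G108100. The difference was 1.99 ± 0.57 for Potri.007G061901 (log2, SE) and 0.96 ± 0.32 for Potri.006G108100, with limma adjusted p of 0.734 and 0.79. Over the 42 members the median difference at 8 h was 0.01, with 21 higher and 21 lower at 10 µM, the same as the median of 0.01 over all tested genes. When replicate 1 of 10 µM and 8 h was omitted, so that replicate 2 stood alone and was assumed to vary like the other groups, 5 members and 352 genes passed. When replicate 2 was omitted instead, 0 members and 1 gene did. With voom on recovered fragments 0 genes passed.

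At the other times the median member difference between 10 and 200 µM was -0.07 on the log2 scale after 2 h, 0.15 after 4 h, 0.17 after 12 h and -0.08 after 24 h. The libraries of these times chose the members, so the values are descriptions. Potri.006G108100 had 2.28 and 2.84 FPKM at 10 µM against 1.13 and 0.568 FPKM at 200 µM after 8 h, from 12 and 14 against 6 and 3 fragments.

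An average over the 5 times draws mostly on libraries that chose the members, so for them it adds no independent test to that at 8 h. Averaged in this way, 0 of 42 members and 11 of 24934 genes (0.0441%) differed between the phosphate levels in limma at a Benjamini-Hochberg adjusted p under 0.05. Member differences ran from -0.36 to 0.90, with a median of 0.03. An unadjusted p under 0.05 was reached by 6 members, against 7.13% of tested genes. All 6 were higher at 10 µM, and 5 of them were the 5 genes of 8 h. The largest was Potri.007G062041, at 0.90 ± 0.17 (log2, SE; limma adjusted p 0.122). It measured 25.1 and 38.3 FPKM at 10 µM against 17.9 and 28.4 FPKM at 200 µM after 2 h, and 13.8 and 17.3 against 7.80 and 6.09 FPKM after 24 h. In voom on recovered fragments 0 members passed, and 1 member passed in limma when the first 8 h library of the 10 µM series, or the second 2 h library of the 200 µM series, was omitted.

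For the size of the early to late fall at 10 against 200 µM the members give no fair test, since the rule asked for a fall at each level in these same libraries. In limma's test of the difference between the falls 0 of 42 members and 0 of 24934 genes (0% of tested genes) passed at a Benjamini-Hochberg adjusted p under 0.05, and 1 member and 3.48% of genes had an unadjusted p under 0.05. Member differences ran from -0.59 to 0.59 in log2, around a median of -0.03. The SE of a member was 0.12 to 0.61. With voom on recovered fragments 0 genes passed, and 2 genes, of which 0 were members, passed in limma when the second 24 h library of the 10 µM series was omitted.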

How the data were processed

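RNA-seq libraries of total RNA, 2 for each of 10 groups, were taken as deposited. The authors' deposited values were FPKM for 34699 genes in 20 libraries, and 0 further columns of values were present. Per the submitters' processing notes, Bowtie2 2.2.3 and HISAT2 2.1.0 were used, in roles that are not stated. The sources used here do not give a genome build, an annotation or a counting program.

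The members, the lists and the tests were chosen with earlier results of these data known. Gene lists, promoter motifs and tissue markers had been set out in words and were not used here, since the identifiers carry no names or sequences. The rule for named genes gave the 2 members with the largest gap and the 3 most like the median profile. Other genes were named after their values were seen.

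Steps between FPKM values gave gene lengths (60 to 20000 bases searched), whole fragments to within 0.06 for 100% of the 24934 tested genes, and library totals of 14053677 to 15764771 fragments. The median over all values of tested genes in all libraries was 253 fragments, and 1 fragment of a 1 kb gene corresponded to 0.0634 to 0.0712 FPKM.

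limma 3.58.1 in R 4.3.3, with a mean trend in the variance, was fitted to log2(FPKM + 1) of all 20 libraries with 1 mean for each group. This scale understates changes of low genes. Tests were two-sided, with Benjamini-Hochberg adjustment over all tested genes and a threshold of 0.05. The test in the libraries of 1 phosphate level was added after the data had been seen. Both the fit and the recovery of fragments were tested on simulated data.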

Additional observations from a re-analysis of the deposited data

How the results depend on the processing

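The number of members depended on how the rule was set. It was 76 with a pseudocount of 0.1 (41 of the 42 among them), 111 with a gap of 0.6, 11 with a gap of 1, 70 from the 10 µM libraries alone and 35 from the 200 µM libraries alone. It was 44 with quantile normalization (38 shared) and 42 without the filter, and ran from 29 to 63 when 1 library was left out, lowest without replicate 2 at 200 µM and 24 h (27 of the 42 kept) and highest without replicate 2 at 200 µM and 4 h (31 kept). With the second 12 h library of the 10 µM series omitted, 35 genes met the rule (30 kept). The median positions at 8 h moved by less than the spread between replicates under every alternative run. With 1 library left out they ran from 0.713 to 0.765 and 0.170 to 0.220 in replicates 1 and 2 at 10 µM, and from 0.353 to 0.428 and 0.665 to 0.720 at 200 µM.

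With a pseudocount of 0.1, 121 genes were chosen at 10 µM alone and 74 at 200 µM alone. With no filter on low values, where more genes are tested, 11 and 13 of the chosen genes were called lower at the other level. With 1 library left out, the genes chosen ran from 52 to 94 at 10 µM and from 20 to 57 at 200 µM, and the calls at the other level from 11 to 43 and from 13 to 35. The difference in the fall between phosphate levels gave 1 gene with no filter on low values and 0 to 2 genes with 1 library left out, with 0 members in each. The phosphate difference at 8 h gave 0 to 352 genes and 0 to 5 members with 1 library left out. The mean phosphate difference gave 6 to 25 genes and 0 to 1 members.

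With the replicate number as a block within each time, 0 genes passed at 8 h, 8 genes for the mean difference and 0 for the difference in the fall, with 0 members in each. Same-numbered libraries deviated together across phosphate levels at 2 h (r = 0.5) but not at 4, 8, 12 and 24 h (0.07, -0.24, 0.07 and -0.01). Whether the numbers pair the samples cannot be told from these values. Depth limits members with few fragments: 7 of the 42 had fewer than 10 in some late library.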
